A study of Mus musculus with 12 samples.

Results

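Chromatin accessibility was followed at 10 genes of the SWI/SNF chromatin remodelling complex in mouse bone marrow-derived macrophages (BMDMs), of 20661 autosomal protein-coding genes in the RefSeq table. The genes were chosen by name. They encode the ATPases Smarca4 and Smarca2, the core subunits Smarcb1, Smarcc1, Smarcc2 and Smarce1, the ARID subunits Arid1a, Arid1b and Arid2, and Pbrm1. Every ATAC-seq peak that overlapped a gene body or the 10 kb on either side of it was assigned to that gene. Merging the peaks of all libraries gave 144562 autosomal regions, of which 175 lay in the windows of the 10 genes. ATAC-seq marks open DNA with a transposase, and a peak is a stretch where its cuts pile up.

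The 12 libraries came from cells labelled wild type (WT) or knockout (KO) for Baf60a, the SWI/SNF subunit encoded by Smarcd1. Cells were untreated or given oxidised LDL (oxLDL), a lipoprotein that loads macrophages with cholesterol, at 50 µg/ml for 48 h. The Omni cohort, made with the Omni-ATAC protocol, had 1 library in each of 4 groups: WT untreated, KO untreated, WT oxLDL and KO oxLDL. Its labels give neither the ApoE status nor the construct behind the KO. The ApoE KO cohort had 2 libraries in each of the same 4 groups, made with a Nextera kit from cryopreserved cells. All its cells, controls included, lacked ApoE and carried Baf60a f/f. KO cells were Lyz2 Cre+ and WT cells Lyz2 Cre-, so that Cre was driven from the Lyz2 locus of myeloid cells. No label says that the 2 libraries of a group came from separate animals or cultures, so the spread between them may be technical. The p-values of fits to both cohorts rest on that spread and on how far group differences disagreed between the cohorts.

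SWI/SNF complexes use the energy of ATP to slide or eject nucleosomes. Each complex holds a single ATPase, either Smarca4 (BRG1) or Smarca2 (BRM). In the BAF and PBAF forms it sits on a core that includes Smarcb1, Smarcc1, Smarcc2 and Smarce1. Other subunits set the class of the complex: Arid1a or Arid1b mark the BAF form, and Arid2 with Pbrm1 the PBAF form. In macrophages these complexes are known for opening enhancers and inducible genes of the inflammatory response. A peak at a subunit gene describes the chromatin of that gene, not the amount of the protein.

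The 8 genes with a listed start were open there in every library, and most of those starts lay in GC-rich DNA. The stretches printed here are parts of the start regions measured below, 5′ to 3′ on the gene's strand, from RefSeq on GRCm38.p6 (the assembly of mm10). They are examples from an ATPase, 2 core subunits and an ARID subunit, limited to bases outside annotated genes, so the Smarca4 stretch stops short of its listed start. Capitals mark matches to the motifs searched: the GC box GGGCGG, the ETS motif CCGGAAG, the PU.1 motif GAGGAAG, the NRF1 motif (GCGC, any base, then TGCGC) and the AP-1 motif TGANTCA, on either strand.
Smarca4, + strand, chr9:21615919-21616105: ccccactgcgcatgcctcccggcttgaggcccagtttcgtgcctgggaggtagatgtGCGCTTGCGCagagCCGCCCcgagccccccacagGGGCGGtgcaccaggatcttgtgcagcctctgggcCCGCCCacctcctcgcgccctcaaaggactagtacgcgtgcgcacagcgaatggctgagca
Smarcb1, - strand, chr10:75921615-75921864: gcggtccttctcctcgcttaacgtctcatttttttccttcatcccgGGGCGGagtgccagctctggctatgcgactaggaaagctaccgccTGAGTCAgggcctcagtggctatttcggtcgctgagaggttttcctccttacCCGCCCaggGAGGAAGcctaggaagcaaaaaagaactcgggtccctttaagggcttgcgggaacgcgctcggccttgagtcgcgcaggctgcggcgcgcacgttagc
Smarcc1, + strand, chr9:110131774-110132023: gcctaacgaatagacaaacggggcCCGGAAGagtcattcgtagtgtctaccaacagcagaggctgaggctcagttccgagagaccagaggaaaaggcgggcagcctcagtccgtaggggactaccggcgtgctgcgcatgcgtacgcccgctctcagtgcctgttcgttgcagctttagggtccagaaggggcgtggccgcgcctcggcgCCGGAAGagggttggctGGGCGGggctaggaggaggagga
Arid1a, upstream start, - strand, chr4:133756770-133757019: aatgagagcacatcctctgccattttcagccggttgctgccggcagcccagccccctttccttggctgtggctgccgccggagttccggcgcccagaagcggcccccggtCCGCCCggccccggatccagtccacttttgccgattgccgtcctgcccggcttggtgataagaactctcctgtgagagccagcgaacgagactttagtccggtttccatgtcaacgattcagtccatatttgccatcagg

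In the 250 bases upstream of the 9 starts listed for 8 of the members, the median observed-to-expected ratio of CpG was 0.96, beside 0.37 over the 32817 starts of the table. The ratio ran from 0.78 at the upstream Arid1a start to 1.11 at Pbrm1. The median GC content of these 9 stretches was 68.4%, beside 52.4% over all starts. The GC box was present in 7 of 9, beside 32.7% of all starts. An ETS motif was found in 2, Smarca2 and Smarcc1, beside 6.9% of all. The PU.1 motif was found in Smarcb1 and Arid1b, beside 10.6% of all. The NRF1 motif was found in Smarca4 (3.73% of all starts), the AP-1 motif in Smarcb1 (6.75%) and the E-box CACGTG in Pbrm1 (6.02%). CCAAT was in 0 of 9 (33.8% of all), TATAAA in 0 (12.4%) and the YY1 motif AAGATGG in 0 (4.49%). No start is listed for Smarce1 or Arid2, so regions over either gene boundary were taken there.

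The lists differed in length. The Omni lists held 82177 to 141441 peaks covering 43.0 to 77.9 Mb, and the ApoE KO lists 24397 to 44524 peaks covering 11.3 to 25.3 Mb. Within a cohort and treatment, KO lists were longer than WT lists, except that 1 untreated KO list of the ApoE KO cohort was shorter than 1 WT list. Read depth is unknown, so most values below come from lists shortened to equal length within a cohort, keeping the 82177 or 24397 peaks of highest score. A file-name mark, L001 or L003, moved with genotype among untreated ApoE KO libraries: both WT carried L001 and both KO carried L003. Among WT libraries of that cohort it also moved with treatment, since both oxLDL libraries carried L003. With oxLDL, 1 KO library carried L001 and the other L003. Within that cohort, neither the untreated genotype difference nor the WT treatment difference can be told apart from the mark. Smarcd1, the targeted gene, had 4 to 6 peaks in its window in Omni libraries and 2 or 3 in ApoE KO libraries, with overlapping KO and WT ranges. An accessibility call does not test whether part of a gene is deleted. Of 11 macrophage marker genes, 11 had a region over a gene boundary in all 4 Omni libraries and 7 in all 12, the exceptions being Csf1r, Itgam, Fcgr1 and Mpeg1. The same was true in all 12 libraries of 0 of 5 B cell markers, 1 of 6 T and NK cell markers, 1 of 6 neutrophil markers, 1 of 4 dendritic cell markers, 0 of 4 erythroid markers and 0 of 4 fibroblast markers. In bulk libraries, fewer cells with an open site and less opening per cell cannot be told apart.

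The longest member window held the most peaks. Arid1b, a gene of 353.4 kb, had 43 to 73 peaks in the Omni libraries and 12 to 25 in the ApoE KO libraries. Smarcb1, of 24.8 kb, had 3 or 4 and 2 or 3. Per 10 kb of window, the median over the 10 members was 0.882 peaks in the Omni cohort, beside 0.85 over all genes, and 0.304 in the ApoE KO cohort, beside 0.273. The densest member in the Omni cohort was Arid1a with 1.611 and the sparsest Smarcc1 with 0.39 per 10 kb. The members thus held 12.3 to 13.1 of every 10000 autosomal peaks in Omni libraries and 13 to 15.5 in ApoE KO libraries.

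Of the 175 regions, 28 were called in all 12 libraries (16.0%, against 12% of all regions). Another 46 were called in 1 library only (26.3%, against 25.5%). All 4 Omni libraries called 94 (53.7%, against 48.0%). Of these 94, 28 were called in all 8 ApoE KO libraries (29.8%, against 25%) and 29 in none of them (30.9%, against 32.6%). Calls in Omni libraries alone made up 105 regions (60.0%, against 60.8%), and calls in ApoE KO libraries alone made up 3 (1.71%, against 3.65%). No member region was called in all 8 ApoE KO libraries and 0 of 4 Omni libraries, a split held by 0.0387% of all regions. These shares lay near those of the genome. The position of the shared regions was uneven: all 9 regions over a listed start were called in 12 of 12 libraries, against 12 of 132 inside gene bodies and 5 of 30 in the flanks. Shares by position were not computed over all regions, so the unevenness is not read as a trait of these genes.

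**Figure D1:**
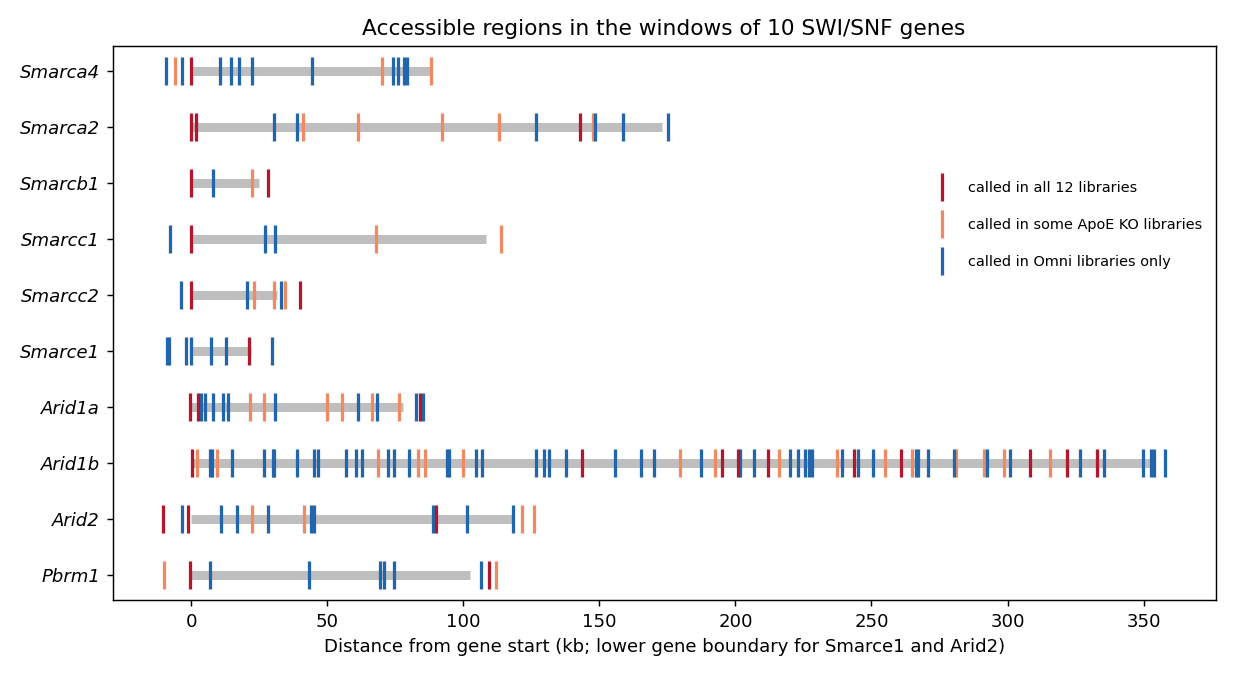
Position of the 175 accessible regions in the windows of the 10 genes, in kb from the gene start (the lower gene boundary for Smarce1 and Arid2). Grey bars are gene bodies and each tick is a region, coloured by the libraries that called it in the full lists. Red ticks, called in all 12 libraries, sit at every listed start and at 1 boundary each of Smarce1 and Arid2, and are most numerous in Arid1b, with 10 of 75, its start included.

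A region over the start, or over a gene boundary for Smarce1 and Arid2, was called in 12 of 12 libraries at all 10 members. Over all genes, 43.8% of those with a listed start had such a region over it, and 39.2% had one over either boundary. By the same boundary rule, 12 of 19 other SWI/SNF subunit genes and 8 of 13 ATPase genes of other remodellers had one. The subunit genes without one were Actb, Actl6b, Bcl7a, Dpf1, Phf10, Smarcd3 and Ss18. Of the other ATPase genes, Chd2, Chd3, Chd4, Chd9 and Ino80 had none.

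To compare strength within a library, each peak was given its score percentile, its rank by the authors' caller score within the list (100 is the highest). The ATPases came first in the order of roles. Smarca4, the ATPase BRG1, had its start region at chr9:21615552-21616887. In the Omni libraries its percentile was 89.1 in WT untreated, 82.5 in KO untreated, 96.3 in WT oxLDL and 87.9 in KO oxLDL. Across ApoE KO libraries it was 76.2 and 84.7 in WT untreated, 54.5 and 67.7 in KO untreated, 82.2 and 69.2 in WT oxLDL, and 69.5 and 75.3 in KO oxLDL. KO lay below WT in both Omni pairs and among untreated ApoE KO libraries, and the groups overlapped among oxLDL libraries of the ApoE KO cohort. Smarca2, the ATPase BRM, had its start region at chr19:26604440-26605472. Its percentile was 87.6, 73.7, 94.1 and 91.0 in the same Omni groups. All 8 ApoE KO libraries placed it between 98.1 and 99.8, the highest of any member start there. The order of the ATPases therefore differed between cohorts: in Omni libraries the Smarca4 start scored above Smarca2 in 3 of 4, and in ApoE KO libraries below it in 8 of 8.

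Percentiles of the cohorts come from lists of different length and are not compared with each other here. Among the core subunits, Smarcc1, a scaffold of the complex, had the highest start percentile of any member in each Omni library. It lay at 96.5, 96.6, 98.5 and 97.9 in WT untreated, KO untreated, WT oxLDL and KO oxLDL. Its range in the ApoE KO cohort was 69.2 to 91.6, with a median of 81.6. Smarcb1 (SNF5), which holds the complex to the nucleosome, lay at 92.4, 93.6, 82.5 and 80.6 in the same Omni order. Values in the ApoE KO cohort were 71.2 and 80.6 in WT untreated, 66.2 and 75.9 in KO untreated, 70.6 and 77.7 in WT oxLDL, and 61.5 and 64.1 in KO oxLDL. Smarcb1 thus stood lower with oxLDL in both Omni genotypes, while the ApoE KO groups overlapped in WT and were apart in KO. Smarcc2, the paralogue of Smarcc1, ran from 71.9 to 87.8 in Omni libraries and from 11.4 to 54.9 in ApoE KO libraries. Smarce1 (BAF57), a DNA-binding core subunit, had a region over its upper gene boundary that ran from 64.3 to 76.8 and from 20.8 to 68.1. Both scored below the Smarcc1 start of the same library in 8 of 8 ApoE KO libraries.

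The BAF subunits Arid1a and Arid1b had the lowest start medians in the Omni cohort. Arid1a, the ARID subunit of BAF, has 2 listed starts, each under its own region. The downstream start (chr4:133753638-133754678) had percentiles of 56.0, 38.3, 66.1 and 61.0 in the Omni groups. The ApoE KO cohort had 54.9 and 70.9 in WT untreated, 32.4 and 1.9 in KO untreated, 40.5 and 73.6 in WT oxLDL, and 4.5 and 34.4 in KO oxLDL. No KO value reached a WT value of the same cohort and treatment. Arid1b, its paralogue, had 43.8, 33.4, 61.9 and 50.3 in the Omni groups and 21.2 to 53.7 in the ApoE KO cohort. Its Omni median, 47.0, was the lowest of any member start. Arid2, the ARID subunit of PBAF, had a region of 3140 bases over its lower boundary, which is also a boundary of Gm38469. It lay at 67.2, 48.6, 75.2 and 67.5 in the Omni groups and at 66.5 to 82.2 in the ApoE KO cohort. Pbrm1, the bromodomain subunit of PBAF, shares its start region (chr14:31017552-31019690) with Gnl3, a nucleolar protein gene. Pbrm1 lay at 83.0, 69.5, 87.6 and 87.0 in the Omni groups. Its ApoE KO values were 64.7 and 81.6 in WT untreated, 57.5 and 58.1 in KO untreated, 81.6 and 81.2 in WT oxLDL, and 68.2 and 66.4 in KO oxLDL. Again every KO value was below every WT value of its cohort and treatment.

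**Figure D2:**
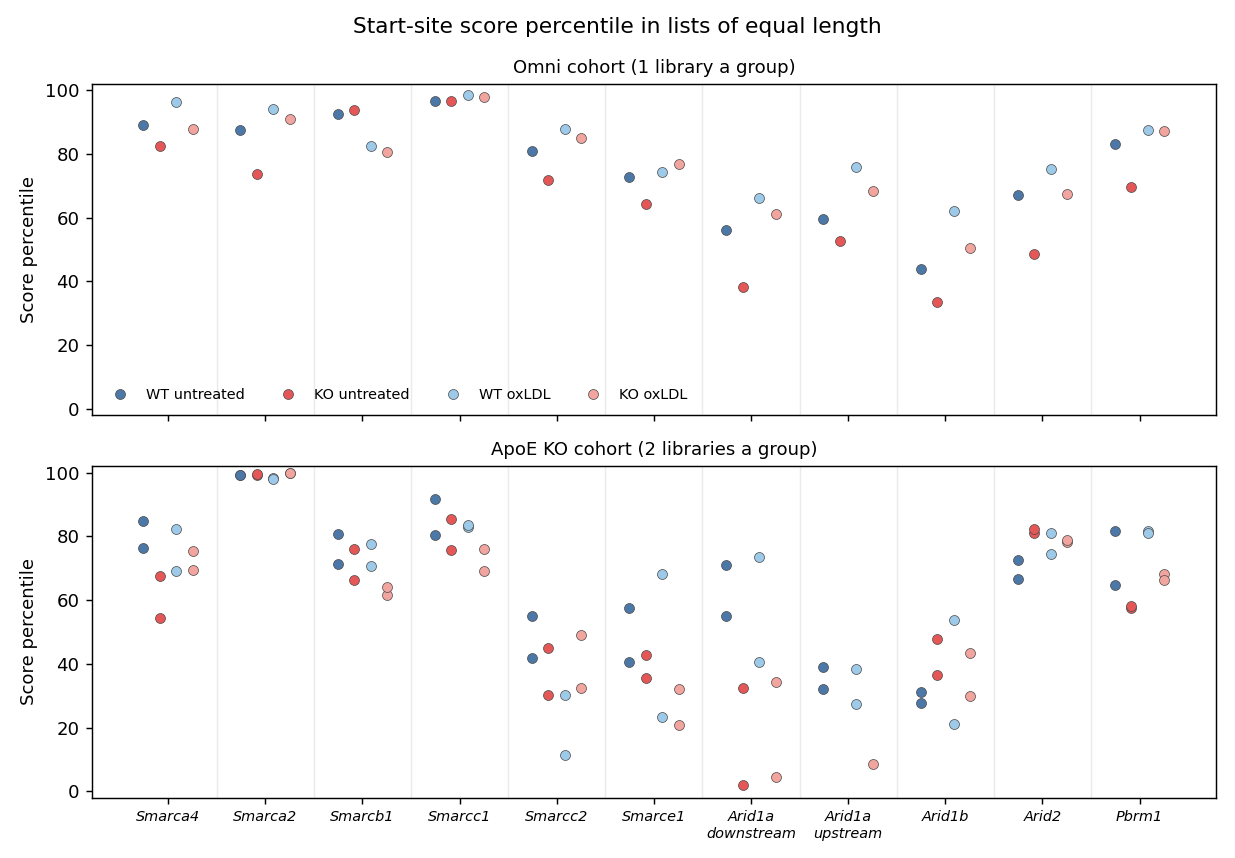
Score percentile of the start or boundary region of each member, by library, in lists of equal length (Omni cohort above with 1 library a group, ApoE KO cohort below with 2). Smarca2 lies at 98.1 or above in all ApoE KO libraries, and KO points of Arid1a and Pbrm1 lie below the WT points of the same treatment. A missing point at the upstream Arid1a start is a library with no call in the equal-length list.

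Outside the starts, the strongest regions differed by gene. Arid1b held the region with the highest mean percentile of any member outside a start, 195.0 kb into the gene (chr17:5189481-5190747). It scored 90.4 to 97.1 in Omni libraries and 90.8 to 97.8 in ApoE KO libraries, far above the start of the same gene in every library. Another Arid1b region, at 321.7 kb, scored 96.3 to 98.8 and 76.8 to 89.1. Smarcb1 had a strong region 28.3 kb from its start, over a boundary of the neighbouring Derl3, a gene of endoplasmic reticulum protein degradation. That region scored 97.4 to 99.6 in Omni libraries and 41.0 to 76.2 in ApoE KO libraries. For Smarcc2 and Pbrm1 the strongest region outside the start was also over a neighbour's boundary, Myl6b and Smim4. Smarca2 had its own at 142.9 kb inside the gene, with 70.8 to 76.5 and 34.6 to 72.4.

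Further regions differed in how many libraries of each cohort called them. The Smarca4 region at 44.5 kb (chr9:21660183-21661055) was called in 4 of 4 Omni libraries, with a mean percentile of 75.2 in the full lists, and in 0 of 8 ApoE KO libraries. The Arid1b region at 155.8 kb had the same split, with a mean of 80.6, as did the Arid1b region at 352.9 kb, with 56.9. The Smarcc1 region at 68.0 kb was called in 4 Omni and 2 ApoE KO libraries, and the Arid1a region at 26.7 kb in 4 and 1. The Smarce1 region at 12.9 kb was called in 2 Omni libraries. The Arid2 region at 41.3 kb was called in 4 Omni and 7 ApoE KO libraries. Of all member regions called in 4 of 4 Omni libraries and 0 of 8 ApoE KO libraries, 24 lay inside a gene body, 5 in a flank and 0 over a member's own start or boundary. Those called in 4 of 4 Omni libraries, whatever the ApoE KO calls, were 66 inside, 16 in a flank, 9 over a listed start and 2 over a boundary. This split by position was not computed over all regions, so it is not read as a trait of these genes.

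Genotype did not separate the calls. No member region was called in at least 5 of 6 KO and at most 1 of 6 WT libraries (0.038% of all regions were) or the reverse (0.00138%). No member region was split in this way by treatment, in either direction (0.0401% of all regions for untreated over oxLDL, 0.0% for oxLDL over untreated). Of the 147 member regions called in 1 to 11 libraries, 79 had more KO than WT calls (53.7%, against 55.4% of such regions), and 9 had more WT calls (6.12%, against 8.92%). With oxLDL, 94 had fewer calls (63.9%, against 65.0%) and 15 had more (10.2%, against 8.96%). The members' shares thus lay within a few points of those of all regions, and the full lists were longer in most KO and untreated libraries. Within the ApoE KO cohort, of 42 member regions called in 1 to 7 of its libraries, 26 had more KO calls (61.9%, against 65.1%) and 6 more WT calls (14.3%, against 20.5%). There 26 had more untreated calls (61.9%, against 63.6%) and 12 more oxLDL calls (28.6%, against 22.2%).

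**Figure D3:**
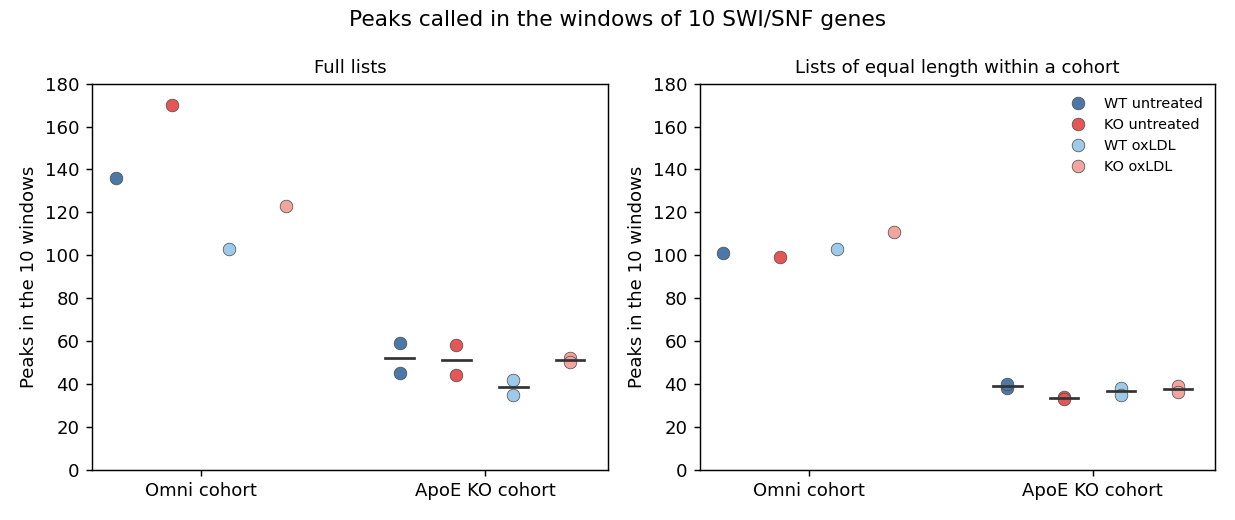
Peaks in the 10 windows together, by library, in full lists (left) and lists of equal length (right). Points are libraries and bars are means of 2 ApoE KO libraries. The spread of 103 to 170 peaks over Omni libraries in full lists narrows to 99 to 111 in lists of equal length, and that of 35 to 59 in the ApoE KO cohort narrows to 33 to 40.

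Peaks per gene window were then tested in lists of equal length with limma, a linear model fitted to log2(peaks + 0.5) over the 14140 genes that averaged 1 peak or more a library. Differences are on that scale and Benjamini-Hochberg adjustment ran over all genes. For KO against WT, 2 genes passed an adjusted p of 0.05 (0.0141%), and none was a member, so 0 of 10 were called. The members' differences ran from -0.17 for Smarcc2 to 0.20 for Smarca2, with a median of -0.03 beside 0.00 over all genes. Smarca2 had 9, 9, 11 and 9 peaks in WT untreated, KO untreated, WT oxLDL and KO oxLDL of the Omni cohort. Each of the 4 WT libraries of the ApoE KO cohort had 3, and each of the 4 KO libraries had 4. The fitted difference was 0.20 (SE 0.09, limma adjusted p = 0.738). Fitted to the ApoE KO cohort alone it was 0.36 (limma adjusted p = 1.08e-08), a value that rests on counts with no spread within a group and differs by 1 peak. For oxLDL against untreated, 3 genes passed (0.0212%) and 0 of 10 members did. The members ran from -0.41 for Smarce1 to 0.34 for Smarca4, with a smallest limma adjusted p of 0.731. For the interaction, whether the KO difference changed with oxLDL, 1 gene passed (0.00707%) and 0 of 10 members did. Arid1a had the highest value, 0.72 (SE 0.34, limma adjusted p = 0.858).

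The other subunits of the complex gave the same count of calls. Of 19 such genes, 4 had a KO difference above 0, 11 below and 4 at 0, and 0 passed with limma. The smallest unadjusted p belonged to Bicra, a subunit of the non-canonical complex, at -0.37 (SE 0.10, limma adjusted p = 0.738). At an unadjusted p under 0.05 there were 2 of these 19 genes and 0 of 10 members, beside 5.19% of all genes. Of 13 autosomal ATPase genes of other remodelling complexes, 5 were above 0 and 6 below, and 0 passed. At an unadjusted p under 0.05 there were 2 of these 13 (15.4%).

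Score percentiles were tested with limma at the 14866 regions called in all 12 lists of equal length, 24 of which belong to the members. For KO against WT, 0 regions passed an adjusted p of 0.05 (0.0%), so none of the 24 did, and 2020 had an unadjusted p under 0.05 (13.6%). Of the 24, 5 had an unadjusted p under 0.05 (20.8%), and all 5 were lower in KO. How many of the 2020 were lower in KO was not counted. The 13.6% is over regions of every position, whereas all 5 lie over a start or gene boundary. The Pbrm1 start had the smallest p, with a difference of -12.2 points (SE 3.2, limma adjusted p = 0.309). The downstream Arid1a start differed by -31.6 points (SE 9.6, limma adjusted p = 0.309) and the Smarcb1 region at the Derl3 boundary by -15.3 points (SE 4.6, limma adjusted p = 0.309). The Smarca4 start differed by -10.0 points (SE 3.6, limma adjusted p = 0.317) and the Pbrm1 region at the Smim4 boundary by -11.4 points (SE 4.9, limma adjusted p = 0.359).

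Below 0 were 18 of the 24 member regions (75.0%, against 56.3% of all regions tested), with a median of -4.62 points beside -0.74. Of the 10 over a member's own start or boundary, 8 were below 0 (80.0%). No share for starts over all regions was computed in this fit, and many of the 24 lie in Arid1b. The gap is therefore not read as a trait of these genes. In full lists the sign of the medians turned, with 12 of 28 member regions below 0 (42.9%, against 26.3% of all) and a median of 0.65 points beside 2.93 over all regions. The Pbrm1 start then differed by -4.6 points, the Smarca4 start by -3.3, the downstream Arid1a start by -14.8, the region at Derl3 by -6.4 and that at Smim4 by -3.2. In the ApoE KO cohort alone 16 of 24 were below 0 (66.7%, against 50.6%) with a median of -5.43 points beside -0.09. Without the 3 libraries that carried L001, 17 of 24 were below 0 (70.8%, against 57.5%) with a median of -2.24 points beside -0.70. The downstream Arid1a start then differed by -17.5 points, the Pbrm1 start by -11.0, the Smarca4 start by -6.2, the region at Derl3 by -9.1 and that at Smim4 by -3.4, each with a limma adjusted p of 1.0. The Smarca2 start, in lists of equal length, had a difference of -2.3 points (SE 2.9, limma adjusted p = 0.763).

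For oxLDL against untreated, 0 of 14866 regions passed (0.0%), and 1028 had an unadjusted p under 0.05 (6.92%). The members split evenly, with 12 of 24 above 0 (50.0%, against 56.7% of all regions tested) and a median of -0.10 points beside 0.65. The Pbrm1 start was higher by 9.6 points (SE 3.2, limma adjusted p = 0.706) and the Smarcb1 start lower, at -7.2 points (SE 3.1, limma adjusted p = 0.706), the 2 member regions with an unadjusted p under 0.05. In full lists 24 of 28 member regions were below 0, beside 78.4% of all regions. For the interaction 0 regions passed (0.0%) and 613 had an unadjusted p under 0.05 (4.12%), 2 of the 24 member regions among them. These were the Smarcc2 region at the Myl6b boundary, at 24.5 points (SE 7.8, limma adjusted p = 0.976), and the Pbrm1 region at the Smim4 boundary, at 25.3 points (SE 9.8, limma adjusted p = 0.976).

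**Figure D4:**
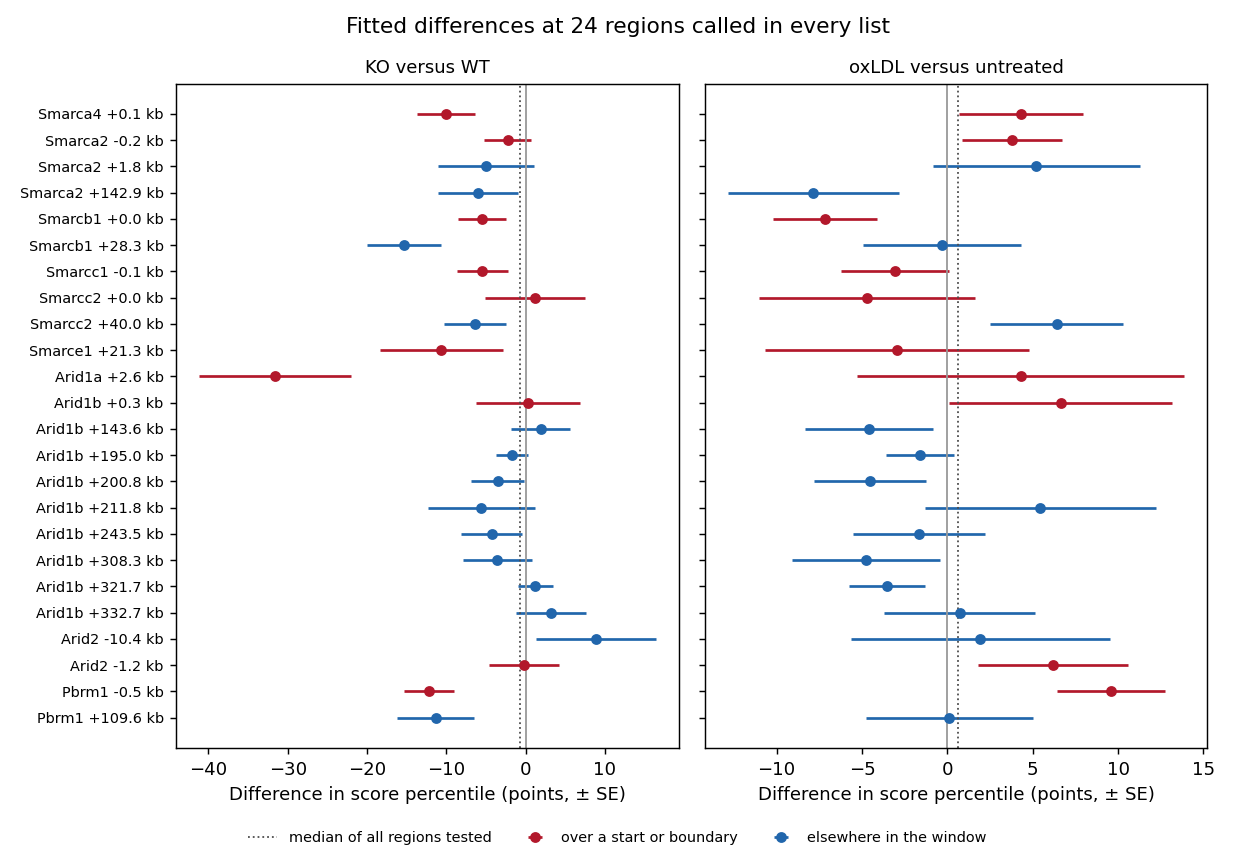
Difference in score percentile at the 24 member regions called in every list of equal length, for KO against WT (left) and oxLDL against untreated (right), with SE. Red points lie over a start or boundary, blue points elsewhere, and the dotted line is the median of all 14866 regions. On the left 18 of 24 points lie below 0, the lowest being the downstream Arid1a start at -31.6 points, and no point passed the adjusted threshold.

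A description that also takes in missing calls asked in which regions every KO library lay on the same side of every WT library, in each of the 4 pairings of cohort and treatment. A library without a call ranked lowest, and regions called in at least 4 lists of equal length were used. WT lay above KO throughout in 4 of 79 such member regions (5.06%, against 1.39% of all such regions). These were the Pbrm1 start, both Arid1a starts and a region 84.0 kb from the Arid1a start at the neighbouring Pigv, an enzyme gene of membrane-anchor synthesis. All 4 lie over a start of some gene, and among member regions over a start they were 4 of 16 (25%, against 5.78%). They come from the windows of Pbrm1 and Arid1a alone, and regions of the same window need not be independent. KO lay above WT throughout in 1 of 79 (1.27%, against 1.16%), and among regions over a start in 0 of 16 (0.541% of all). Away from starts, WT lay above KO in 0 of 63 (0.57% of all) and KO above WT in 1 of 63 (1.59%, against 1.28%). oxLDL lay above untreated in 0 of 79 (0.633%), and untreated above oxLDL in 0 of 79 (0.478%). In full lists the count of 4 fell to 1, the region at Pigv, and the share over all regions fell too, to 0.122%, so 3 of the 4 rest on lists of equal length.

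At the upstream Arid1a start (chr4:133756547-133757796), percentiles were 59.4 in WT untreated, 52.8 in KO untreated, 75.7 in WT oxLDL and 68.4 in KO oxLDL of the Omni cohort. Among ApoE KO libraries WT untreated had 32.2 and 39.0 and WT oxLDL had 27.4 and 38.5, while 3 of 4 KO libraries had no call in the equal-length list and the other had 8.7. In the full lists all 12 libraries called it. The region at Pigv had 67.3, 52.8, 76.4 and 69.4 in the Omni groups. Its ApoE KO values were 54.9 and 53.6 in WT untreated, 55.2 and 67.3 in WT oxLDL, 13.9 and no call in KO untreated, and 30.3 and 11.4 in KO oxLDL.

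The single region with KO above WT throughout lay inside Smarca2, 92.1 kb from its start (chr19:26696822-26697750). Its percentile was 85.0 in WT untreated, 98.5 in KO untreated, 81.3 in WT oxLDL and 84.5 in KO oxLDL of the Omni cohort. ApoE KO libraries had 23.2 and 39.9 in KO untreated and 24.4 and 61.1 in KO oxLDL, with no call in any of the 4 WT lists of equal length. In the full lists 2 of 4 WT libraries of that cohort called it as well, both untreated. This region accounts for the extra peak of the Smarca2 window in KO libraries of the ApoE KO cohort. Another Smarca2 region, at 41.2 kb, was strong in untreated Omni libraries, 74.4 in WT and 76.9 in KO, and weak after oxLDL, 18.2 and 5.2. It was called in 2 ApoE KO libraries in the full lists and in none of equal length. Other member regions went the opposite way in both genotypes. The Arid2 region at 22.2 kb had 17.5 in WT and 38.7 in KO untreated, and 70.9 and 66.4 with oxLDL. The Smarcb1 region at 22.5 kb had 9.1 and 54.1 untreated, and 50.8 and 72.7 with oxLDL. These 3 regions were chosen after their values were seen, with 1 library a group and no replicate check.

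**Figure D5:**
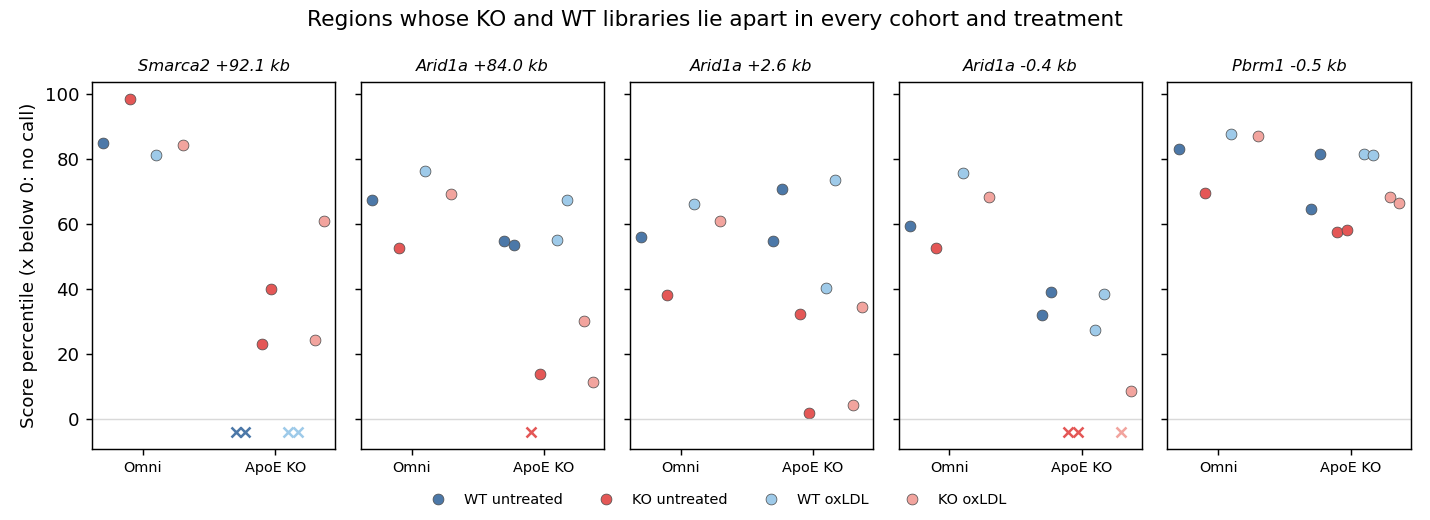
Score percentile in lists of equal length at the 5 member regions where KO and WT libraries lie apart in every cohort and treatment. Circles are libraries and crosses below 0 are libraries with no call. KO is higher at Smarca2 +92.1 kb and lower at the other 4, and the regions were chosen for this pattern.

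At the same 14866 regions, summed width was larger in KO at the median by 0.16 on the log2 scale and smaller with oxLDL by a median of -0.17. No region passed with limma for genotype (0.0%, with 14.3% at an unadjusted p under 0.05), treatment (0.0%, with 16.1%) or their interaction (0.0%, with 2.6%). Of the 24 member regions, 18 were wider in KO (75.0%, against 87.3% of all), with a median of 0.10 beside 0.16, and 1 had an unadjusted p under 0.05 (4.17%). That 1 was the Smarcc1 start, wider in KO by 0.36 (SE 0.09, limma adjusted p = 0.311). It spanned 1168 and 1079 bp in the WT Omni libraries, untreated and oxLDL, and 1712 and 1410 bp in KO. In the ApoE KO cohort it spanned 640 to 755 bp in the 4 WT libraries and 859 to 909 bp in the 4 KO libraries. Among regions called in at least 4 lists of equal length, with a missing call ranked lowest, KO was wider than WT throughout at 3 of 79 (3.8%, against 2.71%). These were the Smarcc1 start, Smarca2 at 92.1 kb and Arid2 at 41.3 kb. The last 2 rest partly on missing calls. Smarca2 at 92.1 kb had no call in the 4 WT lists of the ApoE KO cohort, and Arid2 at 41.3 kb was called in 11 lists. WT was wider throughout at 0 of 79 (0.0208%).

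With oxLDL the Smarcc2 start was narrower, at -0.45 (SE 0.17, limma adjusted p = 0.278). It spanned 1782 and 1841 bp in untreated Omni libraries, WT and KO, and 1752 and 1776 bp with oxLDL. ApoE KO libraries went from 855 and 1031 bp to 485 and 641 bp in WT, and from 1207 and 948 bp to 901 and 577 bp in KO. In WT this step coincided with the change of file-name mark from L001 to L003. The untreated values lay above the oxLDL values in every cohort and genotype. This was the 1 region of 79 with untreated wider throughout (1.27%, against 2.82%); oxLDL was wider at 0 of 79 (0.00641%). The region at Myl6b near Smarcc2 had -0.74 (SE 0.29, limma adjusted p = 0.282) and the Arid1b region at 143.6 kb had -0.34 (SE 0.12, limma adjusted p = 0.269). Widths of the other 21 member regions had an unadjusted p of 0.05 or more for oxLDL.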

How the data were processed

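The 12 BMDM libraries each gave 1 deposited ATAC-seq peak list on mm10, and GEO's labels gave the groups. Sequencing was paired-end 150, per the labels' protocols. Peaks were called with MACS3 in the Omni cohort and MACS2 in the ApoE KO cohort, after alignment with Bowtie2 2.3.4.1 and handling with SAMtools 1.2 and bedtools 2.28.0, per the submitters' processing notes. FastQC, cutadapt, Trim Galore and Picard are named there too, without parameters. The score that the authors deposited for each peak, a whole number not under 13, was used only for ranking inside 1 list. ApoE KO lists also hold a fold enrichment (a ratio) and the −log10 of a p and q, as deposited by the authors. Those were not used. Read depth is unknown, so no counting interval is given. In the Omni cohort, with 1 library a group, differences have no replicate check of their own.

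Gene windows came from RefSeq (GRCm38.p6) on the 19 autosomes. Peaks overlapping by 1 bp or more were merged into regions. limma 3.58.1 in R 4.3.3 fitted peaks per window (log2 of peaks + 0.5), score percentile (mid-rank) and log2 summed width over all features, with cohort and 4 genotype-by-treatment groups in 1 model, two-sided, at an adjusted p of 0.05. The fit was tested on simulated data with normally distributed noise. That test does not cover peak counts with no spread within a group. Other steps ran in Python 3.11.15 with matplotlib 3.10.9, scipy 1.17.1, pandas 2.3.3 and numpy 2.4.6. The 10 members and all lists were chosen with earlier results of these data known. By a fixed rule the text names, for each member, the start region, the strongest region outside it, regions separated by genotype, treatment or cohort (3 at most for cohort) and regions past the threshold; other regions were named after their values were seen. Replicate numbers of the ApoE KO cohort were not taken as pairs in the fit as reported. Alternatives changed list length, the score threshold, cohort, flank, overlap, pseudocount, filter, scale, replicate block and the libraries used. The 3 libraries marked L001 were left out as an alternative added after seeing the data.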

Additional observations from a re-analysis of the deposited data

How the results depend on the processing

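No member passed the adjusted threshold in the limma fits as reported. Alternatives were counted over 1677 values: peaks of member windows, and percentile and width of regions over a member's own start or boundary. Member regions elsewhere in the windows were left out of this count. Of the 1677 values 1 passed, Smarca2 in the ApoE KO cohort alone (0.363, limma adjusted p = 1.08e-08, peaks per window, KO against WT), and 147 changed sign without passing. Trimming peaks to 200 bp gave counts over all regions only. Genes passing for peaks per window were few and moved with the setting, for KO against WT, oxLDL and the interaction in that order. They were 2, 3 and 1 in the fit as reported. They were 0, 10 and 0 in full lists (median over all genes 0.158 for KO and -0.216 for oxLDL) and 0, 0 and 0 with 50 kb flanks or the higher-scoring part of each list. A pseudocount of 1 gave 5, 6 and 1. The ApoE KO cohort alone gave 433, 386 and 380, and leaving out the 3 L001 libraries 404, 409 and 398. Leaving out 1 library at a time gave 0 to 105, 0 to 93 and 0 to 81, with the highest counts without the KO oxLDL library of the Omni cohort. For score percentiles leaving out 1 library gave 0 to 29 regions for KO against WT (29 without that same library), 0 to 1 for oxLDL and 0 for the interaction, and for widths 0 to 1, 0 and 0. The replicate block gave 0, 0 and 0 genes for peaks per window and 0 regions elsewhere. Deviations of same-numbered ApoE KO libraries correlated between -0.09 and 0.05 over 6 pairs. No shared effect of the replicate number was thus visible, but this cannot tell whether same-numbered libraries came from the same animal or culture. Member regions called in all 12 libraries were 28, 24 in lists of equal length, 17 in the higher-scoring part of each list, and 28 to 31 with 1 library left out. Those called in at least 5 of 6 libraries against at most 1 were 0, and 0 to 1 with 1 library left out. WT above KO throughout held at 4 member regions, 1 in full lists (at Pigv), 2 in the higher-scoring part (at Pigv and the Pbrm1 start), 24 in the Omni cohort alone, where 1 library a group makes full separation common (34.4% of regions), and 4 to 5 with 1 library left out, where the share over all regions rises from 1.39% to between 1.77% and 3.53% and leaving out a library cannot break the order at regions already apart. The causes of these changes were not tested. Read depth, which is unknown, limits which weak regions could be called.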
